A study of Mus musculus with 6 samples.

Results

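The genes described here encode enzymes that write or erase methyl and acetyl groups on histones and methyl groups on DNA. They were taken from the value table as every gene with a probe set of 1 symbol whose name begins Kdm, Kmt, Setd, Hdac, Dnmt or Kat, together with Sirt1 to Sirt7, Tet1 to Tet3, Ezh1 and Ezh2. Kdm3a, Kdm5c, Kdm5d and Kdm6a were left out, and each gene was read from its brightest probe set over the 6 arrays. This gave 68 of 19938 genes: 20 lysine methyltransferase genes, 14 lysine demethylase genes, 11 zinc-dependent deacetylase genes, 7 sirtuin genes, 8 lysine acetyltransferase genes and 8 genes of DNA methylation. The last group includes Dnmt3aos, a non-coding gene on the strand opposite Dnmt3a. Some of these enzymes are named for histones and act mainly elsewhere, such as Setd3 on actin.

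The RNA came from tumour-associated macrophages sorted by flow cytometry from hepa1-6 tumours, a mouse hepatoma line, growing in the liver of C57BL/6 mice. The mice had received PLX3397 (3 arrays), an inhibitor of the receptor kinases CSF1R, KIT and FLT3, or vehicle (3 arrays). All the animals carried the tumour, and the labels state no dose, time or age, nor how many animals stand behind each array. The labels call the arrays biological replicates, so p-values set the difference between groups against the spread among these 6 samples within their groups. The description labels also give each sample a second name, of macrophages given IL4 for the PLX3397 samples and LPS with interferon-gamma for the vehicle samples, which conflicts with the titles and treatments and was not used.

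Histone acetylation loosens chromatin and accompanies active genes; acetyltransferases add the group, and the zinc-dependent deacetylases and the NAD-dependent sirtuins remove it. Lysine methylation can mark active or silent chromatin, depending on the residue, and is set by SET-domain methyltransferases and removed by the JmjC and LSD demethylases. DNA methyltransferases place methyl groups on CpG dinucleotides, and TET enzymes oxidise them as a step towards removal. In macrophages these enzymes are known to tune inflammatory and IL4-driven programmes, with Kdm6b, Tet2 and Hdac3 among the members studied most. Transcript levels give no measure of the enzymes' activity or of the marks themselves.

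With PLX3397 the largest changes were falls, of Tet2, Kdm7a, Hdac2, Setd2, Kmt2e and Kmt5a, each by more than 1 log2, whereas the largest rise, that of Kmt5c, was 0.90. Of the 68 genes 21 rose (30.9%) and 20 fell (29.4%) at a limma adjusted p below 0.05, and 27 did not pass. Over all 19938 genes 19.6% rose and 18.3% fell, 37.8% together. Among the 13502 genes above the array background on all 3 arrays of a group, those shares were 26.7% and 25.7%, 52.4% together, close to the shares among the enzymes, so the number of calls does not set the enzymes apart. Of the calls with a change of at least 0.5 log2, 15 were falls and 5 were rises among the 68 enzyme genes. By that much 11.4% of all genes were lower and 8.70% higher. Among the 13502 genes above background, 2233 were lower and 1711 higher by that much. The median change of the 68 was 0.06, against 0.04 for all genes. Most enzyme genes were of middle brightness: of the 37 with a mean level of 6 to 8 log2, 9 rose and 12 fell, and of all 4343 genes in that range 1037 rose and 1705 fell. In bulk RNA of sorted cells a lower share of cells with a transcript and less of it per cell cannot be told apart.

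Of the 68 genes 65 lay above the background level on all 6 arrays. The exceptions were Tet1 and Kdm4d, which exceeded it on no array, and Hdac9, which did so with PLX3397 alone. The groups did not overlap in 49 of the 68 genes (72.1%), against 49.3% of all genes and 63.3% of those above background on all 3 arrays of a group. The balance of rises and falls depended on scaling: with each array centred on its median, which shifted all changes by -0.11, 12 of the enzymes rose and 24 fell, and 34.2% of all calls were rises in place of 51.7%. With quantile normalisation 20 rose and 19 fell. Calls that ended with either scaling are named below.

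**Figure D1:**
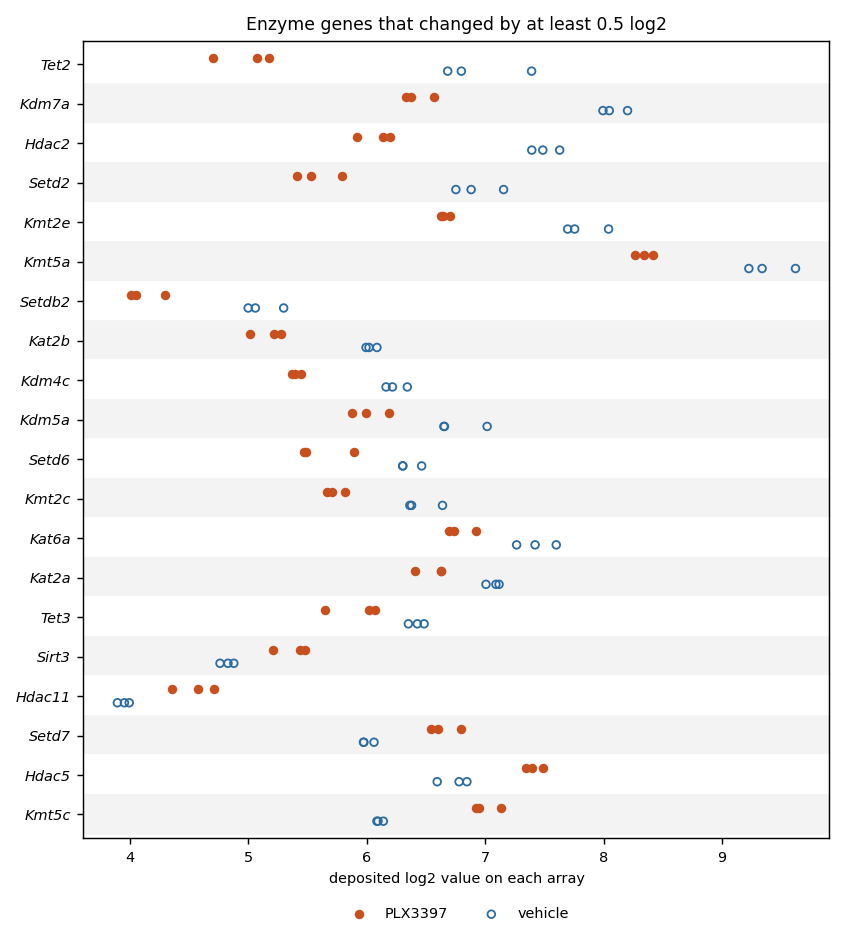
Deposited log2 value (horizontal axis) on each array for the 20 enzyme genes that passed the threshold, did not overlap between groups and changed by at least 0.5 log2, with filled points for the 3 PLX3397 arrays above open points for the 3 vehicle arrays. The 15 genes at the top, Tet2 to Tet3, lay lower with PLX3397, and the 5 at the bottom, Sirt3 to Kmt5c, lay higher.

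The start regions of the genes at both ends of the range show how far CpG density, the substrate of the DNA methylation enzymes, differs among them. Shown are the 3 falls and the 3 rises that were largest among the enzyme genes with a single promoter in RefSeq's GRCm38.p6 table, as 300 bases from 250 before to 50 after the start, 5′ to 3′ on the gene's strand, with CG dinucleotides in capitals.
Tet2 promoter, chr3:133544341-133544640, - strand: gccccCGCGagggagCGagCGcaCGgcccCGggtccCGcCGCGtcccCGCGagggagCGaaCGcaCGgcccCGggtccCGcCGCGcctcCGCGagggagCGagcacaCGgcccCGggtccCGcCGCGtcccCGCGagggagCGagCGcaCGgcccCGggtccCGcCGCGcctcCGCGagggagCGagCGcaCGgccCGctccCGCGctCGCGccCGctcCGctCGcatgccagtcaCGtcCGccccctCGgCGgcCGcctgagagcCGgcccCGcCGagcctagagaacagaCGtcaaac
Kdm7a promoter, chr6:39206724-39207023, - strand: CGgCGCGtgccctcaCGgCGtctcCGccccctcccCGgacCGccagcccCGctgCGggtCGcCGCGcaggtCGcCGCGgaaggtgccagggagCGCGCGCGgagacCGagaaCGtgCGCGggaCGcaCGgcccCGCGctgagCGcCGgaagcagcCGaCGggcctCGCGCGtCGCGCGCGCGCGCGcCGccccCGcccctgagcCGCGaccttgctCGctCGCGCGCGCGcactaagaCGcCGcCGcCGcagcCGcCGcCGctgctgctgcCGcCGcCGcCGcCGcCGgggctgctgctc
Hdac2 promoter, chr10:36974294-36974593, + strand: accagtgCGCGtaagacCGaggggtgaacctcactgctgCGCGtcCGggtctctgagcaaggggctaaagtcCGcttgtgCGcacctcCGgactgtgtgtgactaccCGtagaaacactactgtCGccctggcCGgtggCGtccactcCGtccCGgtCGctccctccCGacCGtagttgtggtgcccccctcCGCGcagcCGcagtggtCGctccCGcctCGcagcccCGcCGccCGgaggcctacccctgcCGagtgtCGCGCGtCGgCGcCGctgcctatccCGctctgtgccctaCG
Kmt5c promoter, chr7:4739877-4740176, + strand: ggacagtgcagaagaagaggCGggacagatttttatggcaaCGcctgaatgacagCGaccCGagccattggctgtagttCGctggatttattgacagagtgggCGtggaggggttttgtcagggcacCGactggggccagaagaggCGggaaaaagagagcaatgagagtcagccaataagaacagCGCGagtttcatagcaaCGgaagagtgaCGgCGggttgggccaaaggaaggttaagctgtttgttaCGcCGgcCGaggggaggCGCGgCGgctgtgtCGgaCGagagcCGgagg
Hdac5 promoter, chr11:102230123-102230422, - strand: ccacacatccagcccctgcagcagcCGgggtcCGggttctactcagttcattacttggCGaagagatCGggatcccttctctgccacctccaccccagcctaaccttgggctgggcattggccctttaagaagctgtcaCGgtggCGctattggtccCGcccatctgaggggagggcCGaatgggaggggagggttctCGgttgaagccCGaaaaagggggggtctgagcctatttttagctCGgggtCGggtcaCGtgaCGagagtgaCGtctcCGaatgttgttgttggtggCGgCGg
Setd7 promoter, chr3:51560774-51561073, - strand: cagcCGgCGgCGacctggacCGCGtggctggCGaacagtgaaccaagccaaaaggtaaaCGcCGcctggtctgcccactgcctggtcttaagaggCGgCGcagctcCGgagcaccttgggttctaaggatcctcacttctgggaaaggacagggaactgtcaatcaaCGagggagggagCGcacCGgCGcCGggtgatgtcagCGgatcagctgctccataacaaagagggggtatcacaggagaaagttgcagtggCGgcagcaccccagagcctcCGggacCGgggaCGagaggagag
The Tet2, Kdm7a and Hdac2 windows held 57, 65 and 36 CG dinucleotides, and those of Kmt5c, Hdac5 and Setd7 held 22, 18 and 21. Over the genes with a promoter in the table, the median count was 28 in 15 enzyme genes that fell and 19.9 in 18 that rose, against 22 in 2961 of all genes that fell, 18 in 3055 that rose and 15 in all 15614. Among called genes above background on all 3 arrays of a group it was likewise 22 in 2837 that fell and 18 in 2836 that rose. Among genes not called it was 20 in 23 enzyme genes, against 11 in 9598 of all genes. These sets differ in expression: 65 of the 68 enzyme genes were above background on all arrays. Of all 12399 genes not called, 6421 were above it on all 3 arrays of a group. The count in those 6421 was not measured, so the contrast is not one between genes of like expression. Counts ranged from 8.5 to 65 among the enzyme genes that fell and from 1.5 to 37 among those that rose, so single genes overlapped widely. Promoters were matched for 56 of the 68.

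Among the genes of DNA methylation the largest change was the fall of Tet2, and Dnmt1 was the 1 rise that passed under both scalings. Tet2, which oxidises 5-methylcytosine and in mouse macrophages is known to hold down Il6, measured 5.17, 5.08 and 4.70 with PLX3397, against 6.80, 7.39 and 6.68 with vehicle. The lowest vehicle value lay 1.51 above the highest PLX3397 value, and the change was -1.97 (SE 0.18, adjusted p = 1.38e-05), or 3.93-fold lower. Tet3, its relative, measured 6.07, 6.02 and 5.64 with PLX3397, against 6.43, 6.48 and 6.35 with vehicle. The groups did not overlap and the change was -0.51 (SE 0.12, adjusted p = 0.00564), but a second, nearly as bright probe set of Tet3 averaged 6.08 with PLX3397 and 6.02 with vehicle, and on the mean of both the call ended (change -0.22, adjusted p = 0.0950). Tet1 stayed below background, at 3.41, 3.47 and 3.34 with PLX3397, against 3.34, 3.34 and 3.43 with vehicle.

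Dnmt1, which copies methylation onto new strands after replication, measured 7.40, 7.45 and 7.51 with PLX3397, against 7.04, 7.0 and 6.94 with vehicle, a rise of 0.46 (SE 0.08, adjusted p = 0.00100) with no overlap. Dnmt3a, a de novo methyltransferase, measured 6.76, 6.75 and 6.60 with PLX3397, against 6.39, 6.31 and 6.38 with vehicle. The groups stayed apart, but the call on its rise of 0.34 (SE 0.08, adjusted p = 0.00750) ended with centred arrays (adjusted p = 0.0563). Dnmt3b, the other de novo enzyme, was near background, with a change of 0.15 (95% interval -0.07 to 0.36, adjusted p = 0.277). Dnmt3l, a cofactor without catalytic activity, rose by 0.32 (SE 0.11, adjusted p = 0.0484) and Dnmt3aos by 0.34 (SE 0.09, adjusted p = 0.0155). Both calls ended with either scaling (adjusted p from 0.0907 to 0.206) as well as without PLX3397 replicate 2, vehicle replicate 1 or vehicle replicate 3 (from 0.0522 to 0.164), and that of Dnmt3l also without PLX3397 replicate 1 (0.128) or vehicle replicate 2 (0.0858). Whether the Dnmt3aos probes tell its transcript from that of Dnmt3a was not tested. Of the 8 genes 4 rose and 2 fell, with 2 and 2 under quantile normalisation and 1 and 2 with centred arrays.

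**Figure D2:**
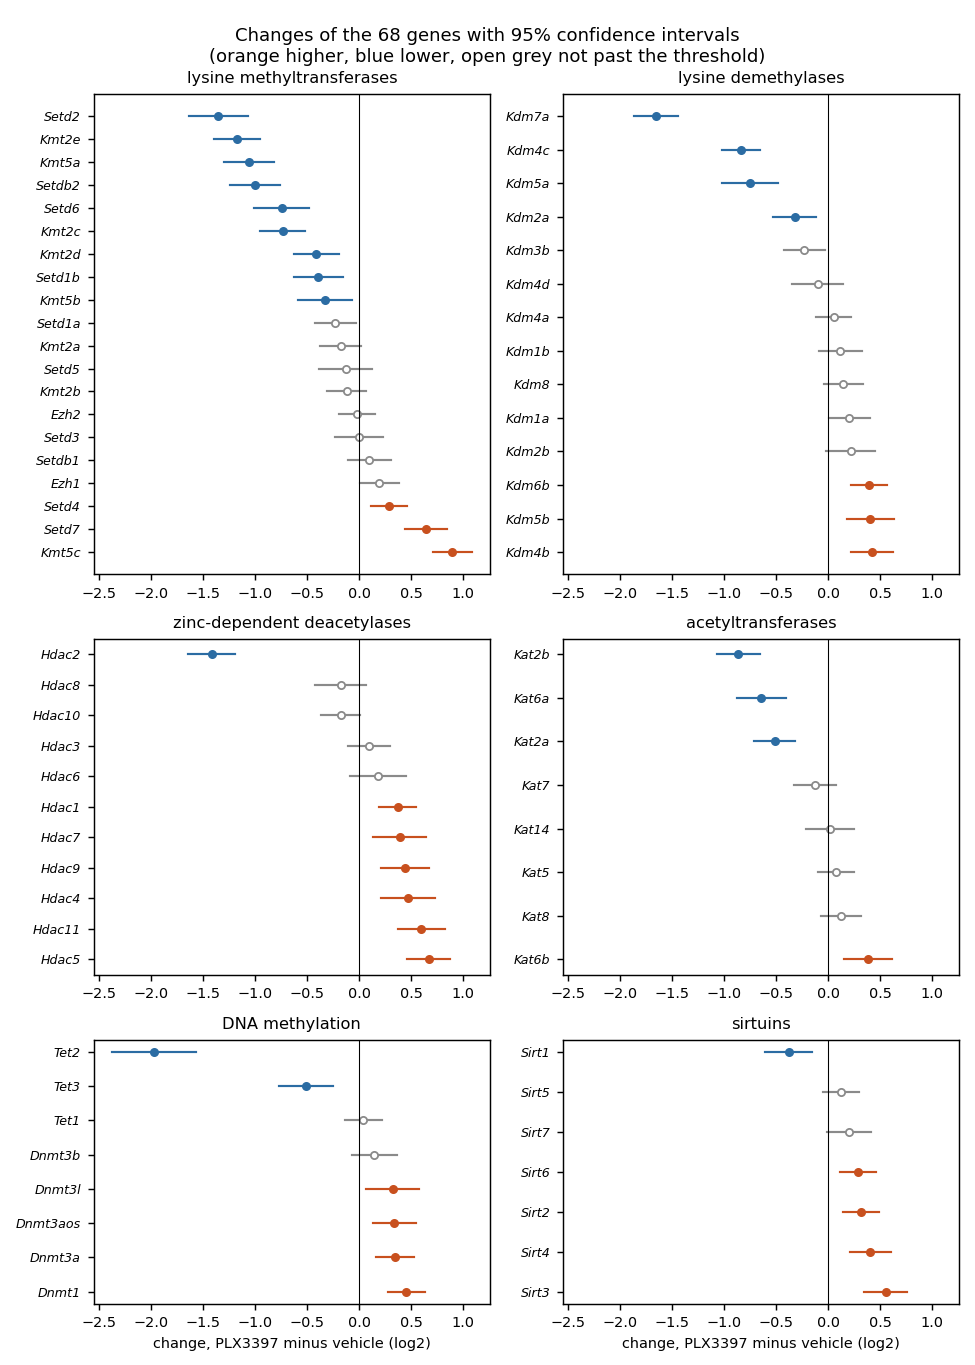
Change of each of the 68 genes on the log2 scale, PLX3397 minus vehicle, with the 95% confidence interval of the limma fit, in 6 panels by enzyme class. Methyltransferase and acetyltransferase genes hold more falls than rises, while deacetylase and sirtuin genes hold more rises at an adjusted p below 0.05, beside the falls of Hdac2 and Sirt1 (with centred arrays Hdac10 also passes as lower). Hdac8 and Hdac10 lie below 0 without passing.

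Among the methyltransferases 9 of 20 genes fell and 3 rose, and with centred arrays 11 fell and 2 rose. Setd2, which places trimethylation on lysine 36 of histone H3 along transcribed genes, measured 5.53, 5.79 and 5.41 with PLX3397, against 6.88, 7.15 and 6.75 with vehicle. Each PLX3397 array lay below each vehicle array, and the change was -1.35 (SE 0.13, adjusted p = 1.60e-05), with a second probe set changed by -1.12. Kmt2e, whose SET domain is not known to methylate histones, measured 6.63, 6.70 and 6.64 with PLX3397, against 7.75, 8.04 and 7.70 with vehicle, and fell by 1.17 (SE 0.10, adjusted p = 8.65e-06). The 3 PLX3397 arrays of Kmt2e spanned 0.07 and lay below all vehicle arrays. Within the same KMT2 family, Kmt2c and Kmt2d, which place monomethylation on lysine 4 of histone H3 at enhancers, both fell. Kmt2c measured 5.67, 5.81 and 5.70 with PLX3397, against 6.38, 6.64 and 6.36 with vehicle, a change of -0.73 (SE 0.10, adjusted p = 0.000172), and Kmt2d fell by 0.41 (SE 0.10, adjusted p = 0.00734), with a dimmer second probe set changed by -0.25.

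Kmt2a and Kmt2b, the relatives that act at many promoters, did not pass, with changes of -0.18 (95% interval -0.37 to 0.02, adjusted p = 0.143) and -0.12 (95% interval -0.31 to 0.07, adjusted p = 0.311). Kmt2a passed as lower with centred arrays (adjusted p = 0.0276). Of the pair that sets most trimethylation of that lysine at active promoters, Setd1b fell by 0.39 (SE 0.11, adjusted p = 0.0147) and Setd1a, at -0.23 (95% interval -0.42 to -0.03, adjusted p = 0.0680), did not pass. Setd1b, whose second probe set changed by -0.63, lost the call without vehicle replicate 2 (adjusted p = 0.0581), and Setd1a passed with centred arrays (0.0144) and when dim genes were left out (0.0428).

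The enzymes of lysine 20 on histone H4 moved in opposite directions. Kmt5a, which adds the single methyl group that the others extend, was the brightest methyltransferase gene and measured 8.34, 8.42 and 8.26 with PLX3397, against 9.23, 9.62 and 9.34 with vehicle. It fell by 1.05 (SE 0.11, adjusted p = 2.87e-05) without overlap. Kmt5c, which extends the mark at silent repeats, measured 6.95, 7.14 and 6.92 with PLX3397, against 6.09, 6.14 and 6.09 with vehicle, and rose by 0.90 (SE 0.09, adjusted p = 1.71e-05), the largest rise among the enzymes, again without overlap. Kmt5b, the close relative of Kmt5c, fell by 0.33 (SE 0.12, adjusted p = 0.0472), a call near the threshold that ended without any of 4 arrays (replicates 1 and 3 of PLX3397 and 2 and 3 of vehicle, adjusted p from 0.0694 to 0.173).

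For methylation of lysine 9 on histone H3, Setdb2, an interferon-induced gene in mouse macrophages, measured 4.05, 4.01 and 4.29 with PLX3397, against 5.06, 5.30 and 5.0 with vehicle, and fell by 1.00 (SE 0.11, adjusted p = 4.32e-05). Its relative Setdb1, known for silencing endogenous retroviruses, changed by 0.10 (95% interval -0.11 to 0.30, adjusted p = 0.450). Setd6, which methylates the NF-kB subunit RelA, measured 5.49, 5.89 and 5.47 with PLX3397, against 6.30, 6.46 and 6.30 with vehicle, a change of -0.74 (SE 0.12, adjusted p = 0.000646). Setd7, which monomethylates histone H3 and several transcription factors, measured 6.79, 6.60 and 6.55 with PLX3397, against 5.97, 6.06 and 5.97 with vehicle, and rose by 0.64 (SE 0.09, adjusted p = 0.000236). The groups of Setdb2, Setd6 and Setd7 each stayed apart. Setd4 rose by 0.29 (SE 0.08, adjusted p = 0.0134), a call that ended with either scaling (adjusted p = 0.0933 with quantile normalisation and 0.117 with centred arrays) and without PLX3397 replicate 1 (0.0522). Setd5, at -0.13, and Setd3, at -0.0020, did not pass.

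The 2 catalytic subunits of Polycomb repressive complex 2, which trimethylates lysine 27 of histone H3, did not pass. Ezh2, the form typical of dividing cells, measured 5.61, 5.64 and 5.67 with PLX3397, against 5.67, 5.70 and 5.59 with vehicle, with overlap and a change of -0.02 (95% interval -0.19 to 0.15, adjusted p = 0.886). Ezh1, the form typical of resting cells, measured 7.67, 7.87 and 7.73 with PLX3397, against 7.55, 7.54 and 7.58 with vehicle. The Ezh1 groups did not overlap, yet its change was 0.19 (95% interval 0.01 to 0.38, adjusted p = 0.0931), and it passed with quantile normalisation (adjusted p = 0.0101).

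Of the 14 demethylase genes 4 fell and 3 rose, with 3 and 4 under quantile normalisation. Kdm7a, which demethylates lysines 9 and 27 of histone H3, measured 6.33, 6.57 and 6.37 with PLX3397, against 7.99, 8.20 and 8.05 with vehicle. Its groups lay 1.43 log2 apart at their nearest, the change was -1.66 (SE 0.10, adjusted p = 5.74e-07) or 3.16-fold lower, and a second probe set changed by -1.12. Kdm4c, which removes trimethylation from lysine 9, measured 5.36, 5.40 and 5.45 with PLX3397, against 6.16, 6.34 and 6.22 with vehicle, a change of -0.84 (SE 0.08, adjusted p = 2.05e-05). Its relative Kdm4b rose by 0.42 (SE 0.09, adjusted p = 0.00429), and Kdm4a, at 0.05 (95% interval -0.12 to 0.22, adjusted p = 0.653), did not pass, so the KDM4 family went both ways. Kdm5a, a demethylase of lysine 4, measured 5.99, 6.19 and 5.88 with PLX3397, against 6.65, 7.02 and 6.66 with vehicle, and fell by 0.75 (SE 0.12, adjusted p = 0.000645). Neither Kdm4c nor Kdm5a had a PLX3397 array as high as any vehicle array. Kdm5b, which acts on the same lysine, was higher by 0.40 (SE 0.10, adjusted p = 0.0104), a call that ended with centred arrays (0.0542).

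Kdm6b, a demethylase of lysine 27 that inflammatory stimuli induce in macrophages, measured 7.20, 7.24 and 7.12 with PLX3397, against 6.81, 6.74 and 6.83 with vehicle. The arrays of each group were close together and the rise was 0.39 (SE 0.08, adjusted p = 0.00279), past the threshold under all 14 alternatives. Kdm2a, a demethylase of lysine 36 that binds unmethylated CpG, fell by 0.32 (SE 0.09, adjusted p = 0.0200), a call that ended with quantile normalisation (0.0623) and without PLX3397 replicate 1, PLX3397 replicate 3 or vehicle replicate 2 (adjusted p = 0.0628, 0.0602 and 0.0772). Kdm1a and Kdm1b, the flavin-dependent LSD enzymes, changed by 0.20 (95% interval 0.00 to 0.40, adjusted p = 0.106) and 0.11 (95% interval -0.09 to 0.32, adjusted p = 0.378), and Kdm1a passed as higher with quantile normalisation (0.0221). Kdm2b (0.21), Kdm3b (-0.23), Kdm8 (0.14) and Kdm4d (-0.10, below background) did not pass. Kdm2b passed as higher without PLX3397 replicate 3 (0.0124), and Kdm3b as lower in 4 alternatives, such as centred arrays (0.0120).

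Of the 8 acetyltransferase genes 3 fell and 1 rose, and under both scalings 3 fell and 0 rose. Kat2b, the coactivator PCAF, measured 5.01, 5.28 and 5.22 with PLX3397, against 5.99, 6.02 and 6.09 with vehicle, and fell by 0.86 (SE 0.09, adjusted p = 3.53e-05). Kat2a, its close relative in the SAGA and ATAC complexes, measured 6.62, 6.63 and 6.41 with PLX3397, against 7.09, 7.12 and 7.01 with vehicle, a change of -0.52 (SE 0.09, adjusted p = 0.00101). Kat6a, the MYST-family enzyme MOZ, measured 6.70, 6.92 and 6.73 with PLX3397, against 7.42, 7.60 and 7.26 with vehicle, and fell by 0.64 (SE 0.11, adjusted p = 0.000721). In all 3 genes every PLX3397 array lay below every vehicle array. Kat6b, the relative of Kat6a, was higher by 0.38 (SE 0.10, adjusted p = 0.0156), a call that ended with either scaling (0.0746 and 0.0765) and without PLX3397 replicate 2 (0.0508) or vehicle replicate 1 (0.0628). Kat5, the Tip60 enzyme of the DNA damage response, measured 6.77, 6.84 and 6.70 with PLX3397, against 6.72, 6.69 and 6.70 with vehicle, with overlap and a change of 0.07 (95% interval -0.10 to 0.24, adjusted p = 0.526). Kat7 (-0.13), Kat8 (0.12) and Kat14 (0.01) did not pass.

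Deacetylase genes rose more often than they fell, with 6 of 11 higher and 1 lower (6 and 1 with quantile normalisation, 5 and 2 with centred arrays). The fall was that of Hdac2, a class I enzyme of the Sin3, NuRD and CoREST complexes, which measured 6.14, 6.20 and 5.92 with PLX3397, against 7.39, 7.63 and 7.49 with vehicle. It lay at least 1.19 lower on any PLX3397 array than on any vehicle array, and the change was -1.42 (SE 0.10, adjusted p = 2.45e-06), or 2.67-fold lower. Hdac1, its partner in the same complexes, was the brightest deacetylase gene at 9.22 ± 0.08 with PLX3397, against 8.85 ± 0.02 with vehicle (SD, n = 3 each), and rose by 0.37 (SE 0.08, adjusted p = 0.00392). A second probe set of Hdac1 gave nearly the same values on every array, so signal shared with a near-identical copy could not be told apart from its own. Hdac3, the enzyme of the NCoR and SMRT corepressors, measured 7.87, 8.08 and 7.87 with PLX3397, against 7.90, 7.76 and 7.89 with vehicle, with overlap and a change of 0.09 (95% interval -0.11 to 0.29, adjusted p = 0.473).

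All 4 class IIa genes, whose products shuttle between nucleus and cytoplasm and bind MEF2 factors, rose. Hdac5 measured 7.34, 7.49 and 7.40 with PLX3397, against 6.78, 6.59 and 6.85 with vehicle, a rise of 0.67 (SE 0.09, adjusted p = 0.000214), with every PLX3397 array above every vehicle array. Hdac4 rose by 0.47 (SE 0.12, adjusted p = 0.00853) and Hdac7 by 0.39 (SE 0.11, adjusted p = 0.0214). The call of Hdac7 ended with centred arrays (0.0766) and without PLX3397 replicate 2 (0.0738) or vehicle replicate 3 (0.0862). Hdac9 was not above background with vehicle and barely above it with PLX3397, at least 1.09-fold higher (adjusted p = 0.00740). Hdac11, the sole class IV enzyme and a known repressor of Il10 in mouse antigen-presenting cells, measured 4.71, 4.58 and 4.35 with PLX3397, against 3.89, 3.99 and 3.95 with vehicle, and rose by 0.60 (SE 0.10, adjusted p = 0.000875), also without overlap. Hdac6 (0.18), a tubulin deacetylase, Hdac8 (-0.18) and Hdac10 (-0.18), a polyamine deacetylase, did not pass. Hdac6 passed as higher without PLX3397 replicate 3 (0.0152), where its PLX3397 value was lowest, and Hdac10 as lower with centred arrays (0.0236).

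Sirtuin genes had 4 rises and 1 fall among 7, with 5 and 1 under quantile normalisation and 2 and 1 with centred arrays. Sirt3, the main deacetylase of mitochondria, measured 5.21, 5.47 and 5.43 with PLX3397, against 4.76, 4.88 and 4.83 with vehicle, a rise of 0.55 (SE 0.09, adjusted p = 0.000898) without overlap. Sirt4, also mitochondrial, rose by 0.40 (SE 0.09, adjusted p = 0.00494), while the third mitochondrial member, Sirt5, changed by 0.12 (95% interval -0.05 to 0.29, adjusted p = 0.247). Sirt1, the nuclear sirtuin that deacetylates RelA and p53, measured 4.59, 4.91 and 4.79 with PLX3397, against 5.05, 5.22 and 5.16 with vehicle. All 3 PLX3397 values of Sirt1 were the lower ones, and it was the 1 sirtuin gene to fall, by 0.38 (SE 0.10, adjusted p = 0.0120). Sirt2, a largely cytoplasmic tubulin deacetylase, was bright at 9.93 ± 0.08 with PLX3397, against 9.62 ± 0.02 with vehicle, and rose by 0.31 (SE 0.08, adjusted p = 0.0101). Sirt6, a chromatin-bound deacetylase, rose by 0.28 (SE 0.08, adjusted p = 0.0160). The Sirt2 and Sirt6 calls ended with centred arrays (0.0752 and 0.119). The nucleolar Sirt7, at 0.20 (95% interval -0.02 to 0.41, adjusted p = 0.140), passed as higher with quantile normalisation (0.0224).

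Close relatives were compared by the difference between 2 genes within each array, a value that a shift of a whole array, such as centring, does not move, although quantile normalisation can. Such a difference sets 2 probe sets against each other, so only its change between groups was read, not its level or sign. Hdac1 minus Hdac2 was 3.07, 3.11 and 3.23 with PLX3397, against 1.46, 1.20 and 1.38 with vehicle, so the difference widened by 1.79 log2. Tet2 minus Tet3 was -0.90, -0.94 and -0.94 with PLX3397, against 0.37, 0.91 and 0.33 with vehicle, a change of -1.46. Both genes were lower on the probe sets used, although the second probe set of Tet3 changed by 0.06. For Kmt5b minus Kmt5c the change was -1.23, for Kdm5a minus Kdm5b -1.16, for Setdb1 minus Setdb2 1.10, for Kat6a minus Kat6b -1.03 and for Kdm4a minus Kdm4c 0.89. In 11 of 18 pairs the groups did not overlap, and each of these reached the smallest p that an exact two-sided permutation test of 3 arrays against 3 allows, 0.1 (0.164 after adjustment over the 18 pairs), so no pair could pass 0.05. The share of other gene pairs without overlap was not measured, and the count is a description of these pairs. Both genes fell in Kat2a minus Kat2b and Kmt2c minus Kmt2d, as in Tet2 minus Tet3 on the probe sets used, and neither passed in Ezh1 minus Ezh2. The groups overlapped in 7 pairs, among them Hdac4 minus Hdac5 (-0.20), Hdac7 minus Hdac9 (-0.05), Kmt2a minus Kmt2b (-0.06) and Sirt6 minus Sirt7 (0.08).

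**Figure D3:**
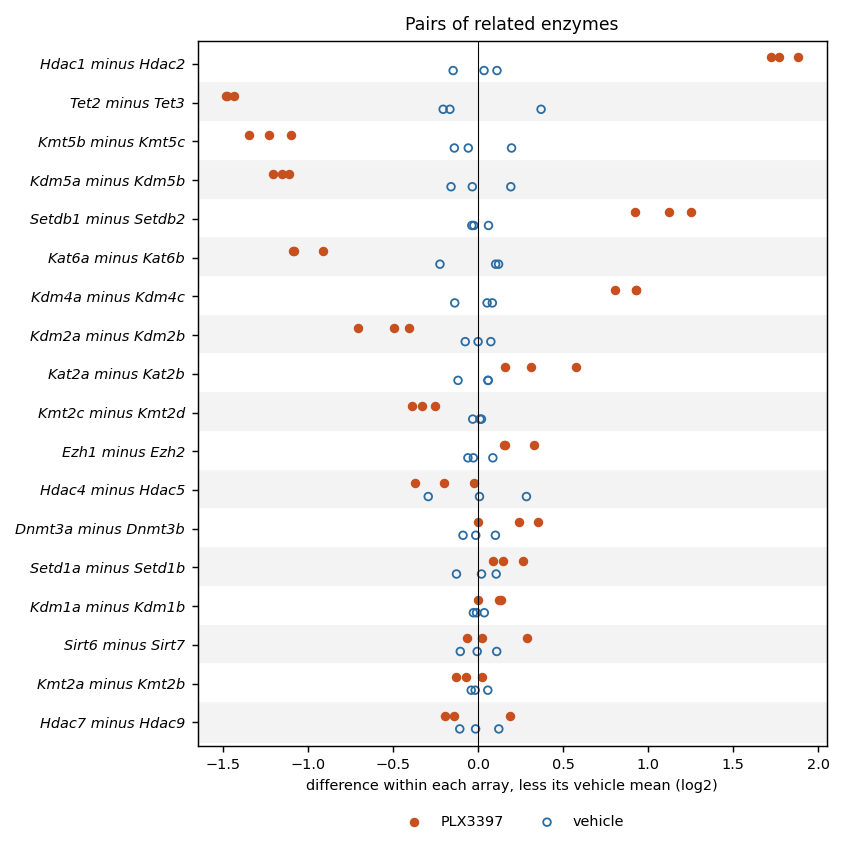
Difference between the log2 values of 2 related genes within each array (horizontal axis, less the vehicle mean of that pair) for 18 pairs, with filled points for PLX3397 above open points for vehicle. The PLX3397 points lie apart from the vehicle points in the upper 11 pairs, from Hdac1 minus Hdac2 down to Ezh1 minus Ezh2, and overlap them in the lower 7.

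Other genes of the same processes were taken as 11 lists: partners in 4 kinds of complex, related enzymes and readers, cofactor supply and the cell cycle. Falls outnumbered rises in 9 of the 11. Of the 160 genes listed, 79 had a mean level of 6 to 8 log2, where falls also outnumber rises among all genes (1705 and 1037 of 4343). Another 53 had a mean level of 4 to 6 log2, where rises outnumber falls among all genes (1567 and 1012 of 5498). Whether the balance of the lists differs from that of genes of like level was not tested. With quantile normalisation falls were the more frequent in 6 lists, and without single arrays in 7 to 9. In the Polycomb repressive complex 2, Suz12 (-0.92, adjusted p = 4.73e-05), Eed (-0.83, 2.28e-05) and Mtf2 (-0.78, 0.000356) fell and Phf1 (0.43, 0.00400) rose, while the catalytic genes did not pass. Of the 9 partners 4 fell and 1 rose (median 0.02), and on the mean of its probe sets Eed was lower by 0.41. Suz12, a core subunit, was 6.25 ± 0.18 with PLX3397, against 7.17 ± 0.07 with vehicle. Of 16 genes of the repressive complex 1, which ubiquitinates histone H2A, 8 fell and 5 rose (median -0.09). Its ubiquitin ligase Rnf2 changed by -1.12, Bmi1 by -0.82, Phc3 by -0.70 (-1.13 when its probe sets are averaged) and the chromodomain gene Cbx8 by 0.63. With quantile normalisation 5 fell and 4 rose, and without PLX3397 replicate 3 there were 4 of each.

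Of 20 subunit genes of the Sin3, NuRD, CoREST and NCoR corepressors, through which class I deacetylases act, 9 fell and 3 rose (median -0.23), with the same counts under both scalings. Sap30 (-1.16) and the scaffold Sin3a (-0.91) of the Sin3 complex fell beside Gps2 (-1.01) and Tbl1x (-0.86) of the NCoR complex. The 3 rises were Chd4 (0.40), Suds3 (0.38) and Sin3b (0.36), and Suds3 and Sin3b also belong to the Sin3 complex. The call of Mta3 (-0.43) ended on the mean of its probe sets (adjusted p = 0.997). Among 13 partners of the KMT2 methyltransferases 5 fell and 4 rose (median -0.14). Psip1, which tethers KMT2A and menin to chromatin, was 4.98 ± 0.21 with PLX3397, against 6.66 ± 0.02 with vehicle, a change of -1.67 (SE 0.11, adjusted p = 1.09e-06). Hcfc2 changed by -1.24, Dpy30 by -0.49 and Men1, which encodes menin, by 0.58.

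Of 19 other acetyltransferase and acetyl-lysine reader genes 9 fell and 2 rose (median -0.20), with the nuclear receptor coactivator Ncoa2 at -1.11, the bromodomain gene Brd7 at -0.66, Crebbp at -0.58 and Ing5 at -0.53. Of 9 arginine methyltransferase genes 5 fell and 1 rose (median -0.27): Prmt3 changed by -1.11, Prmt7 by -0.85, Prmt9 by -0.57 and Prmt2 by 1.21. Other lysine methyltransferase genes had 3 falls and 2 rises among 12 (median -0.12), led by Smyd5 (-0.90), Smyd3 (0.47), Smyd2 (-0.44) and the lysine 36 enzyme Nsd1 (-0.35). The call of Nsd1 ended with quantile normalisation and without PLX3397 replicate 1 or vehicle replicate 2 (adjusted p at most 0.0634). Other JmjC genes had 4 falls and 3 rises among 9 (median -0.03), with Jmjd1c at -1.42, Hr at 0.69, Riox2 at -0.55 and the oxygen sensor Hif1an at 0.45. With quantile normalisation the JmjC counts were 2 and 2.

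Of 14 genes that read methylated CpG or take part in its removal, 3 fell and 2 rose (median -0.10). Apobec1, a cytidine deaminase best known for editing Apob mRNA, was 7.02 ± 0.32 with PLX3397, against 9.49 ± 0.17 with vehicle (change -2.47, adjusted p = 9.13e-07). Gadd45b changed by -0.90, the methyl-CpG reader Zbtb33 by -0.79 and Gadd45g by 0.40. Uhrf1, which brings DNMT1 to hemimethylated sites, rose by 0.38 (adjusted p = 0.00501). Beside Dnmt1 and Uhrf1, 9 of 24 cell cycle genes rose and 0 fell (median 0.15; 5 and 0 with centred arrays, 7 and 1 without PLX3397 replicate 3), with Ccne1 at 0.87, Rrm2 at 0.64, E2f1 at 0.60 and Top2a at 2.12, the last at 0.88 on the mean of its probe sets. The calls were 37.5% of the cell cycle list. Of all genes 37.8% were called in either direction and 19.6% rose, and of those above background 52.4% and 26.7%. The other 15 cell cycle genes did not pass and went both ways, such as Mki67 (-0.10), Pcna (-0.09), Ccna2 (-0.29) and Mcm5 (0.17). The part of the cell cycle genes in the rise of Dnmt1 was not tested.

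Genes that supply the enzymes' cofactors did not share a direction: 4 of 15 rose and 3 fell (median -0.01). The acetyl-CoA enzymes Acly (1.18, adjusted p = 3.35e-06) and Acss2 (1.21, 8.05e-06) rose, as did Idh1 (1.26, 3.23e-05), which makes the 2-oxoglutarate that TET and JmjC enzymes consume. Nampt, the rate-limiting enzyme of NAD salvage on which sirtuins depend, was 8.52 ± 0.11 with PLX3397, against 9.41 ± 0.01 with vehicle, a change of -0.89 (1.54e-05).

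**Figure D4:**
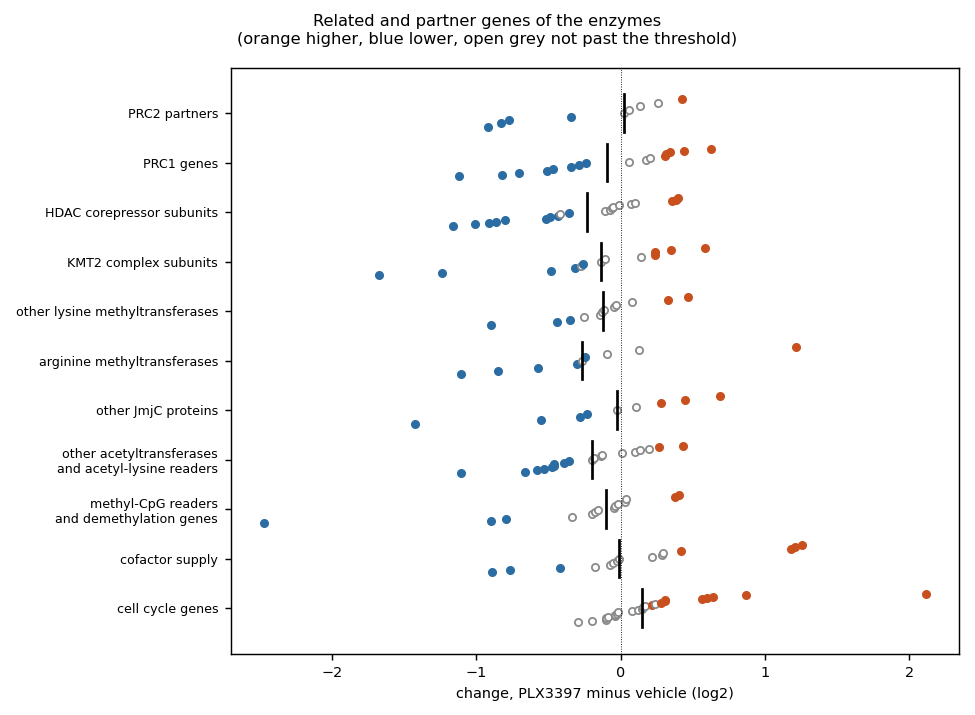
Change on the log2 scale, PLX3397 minus vehicle, of each measured gene in 11 lists of related and partner genes, with black bars for the list medians. Medians run from -0.27 for arginine methyltransferases to 0.15 for cell cycle genes, and Apobec1, at -2.47, lies farthest from 0.

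The sorted cells carried macrophage transcripts in both groups: all 7 macrophage markers were above background on all arrays, with a summed linear level of 17144 to 18572 with PLX3397 and 17688 to 18107 with vehicle, and 3 of the 7 fell while 1 rose. Some markers of other cells differed between the groups, and several of the summed levels rested mostly on 1 gene. Of 6 endothelial markers 4 rose, and their level summed on the linear scale was 411 to 421 with PLX3397, against 149 to 164 with vehicle, with Tek below background. Of 8 neutrophil markers 3 passed as higher, S100a8 by 1.52 and Ly6g and Ltf below background, where Elane and Cxcr2 also lay on all arrays (sum 409 to 734 with PLX3397, against 233 to 247 with vehicle). S100a8 made up most of the difference between these sums. Dendritic cell markers rose in 3 of 8 cases, Ccr7 by 3.35, Batf3 by 0.45 and Zbtb46 by 0.39, with Xcr1, Clec9a and Siglech below background. Their sum was 222 to 406 with PLX3397, against 104 to 113 with vehicle, and Ccr7 made up most of that difference. Of 6 hepatocyte or hepatoma markers Trf alone rose (by 2.85), with Alb and Ttr below background (sum 2362 to 3005 with PLX3397, against 381 to 423 with vehicle). Afp (-0.07), Apoa1 (0.18) and Cps1 (-0.02) did not pass, and Trf made up most of that sum. Of 6 mast cell or basophil markers Hdc alone rose (by 3.59), with the other 5 below background (sum 187 to 296 with PLX3397, against 50.9 to 60.4 with vehicle). Hdc made up most of the difference between those sums. Of 5 B cell markers 3 passed as higher, Cd79b by 0.62 and Cd79a and Ms4a1 below background, and the 1 of 7 T cell markers that passed, Cd2, was below background on all arrays, as were 2 others. Of 6 NK cell markers 5 lay below background. Fibroblast markers fell in 2 of 6 cases, Col1a1 by 0.60 and Col1a2 by 0.43, and the other 4 were higher without passing. The fibroblast median change was 0.21, and the sum was 391 to 791 with PLX3397, against 350 to 563 with vehicle. The part of other cells in the changes of the enzyme genes was not tested.

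Across all genes PLX3397 arrays correlated with each other at 0.9916 to 0.9963, vehicle arrays at 0.9961 to 0.9966 and arrays of different groups at 0.9512 to 0.9612 (Pearson, across genes, which are not independent replicates). Among the 68 genes only Tet2 on vehicle replicate 2 lay over 0.5 log2 from the mean of its group's remaining arrays, which it exceeded by 0.65. Without PLX3397 replicate 3, the array of its group that correlated least with the others, 23 genes rose and 18 fell, of which 21 and 18 were calls of the full comparison.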

How the data were processed

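The deposited table holds log2 values of 28941 probe sets on 6 Affymetrix Mouse Gene 1.0 ST arrays. The log2 scale was read from the values, and MAS5 is named, without version, settings or role, in the submitters' processing notes. Which summarisation and scaling the authors applied to these values is otherwise unstated. Array medians ran from 4.32 to 4.35 with PLX3397 and from 4.21 to 4.25 with vehicle, and the values were used as deposited. Probe sets with 1 symbol in the platform annotation (21789) were reduced to the brightest per gene. PLX3397 was set against vehicle by a two-sided moderated test (lmFit then eBayes in limma 3.58.1, under R 4.3.3) without covariates, with Benjamini-Hochberg adjustment over all 19938 genes and a threshold of 0.05. SE and 95% intervals are those of the fit. No p was adjusted over the enzymes alone.

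Background was set per array, between 3.52 and 3.58, at the 95th percentile of 1190 genes for olfactory or vomeronasal receptors; a fold against a group at or below it is a bound. Values on every array are given for enzyme genes past the threshold, not overlapping and changed by at least 0.5 log2, and for Kdm6b, Ezh1, Ezh2, Dnmt1, Dnmt3a, Tet1, Tet2, Tet3, Sirt1, Hdac3 and Kat5. Up to 4 called genes with the largest changes were named from each partner list. Uhrf1, Chd4, Suds3, Sin3b and Mta3 were added after their values were seen. The members and lists were chosen with earlier results of these data known. Alternatives covered scaling, filters on dim genes, a replicate block, the mean of probe sets, a variance trend, array weights and leaving out each array. Same-numbered arrays showed no shared deviation from their group means, with correlations of -0.010, 0.0080 and -0.013, against -0.023 to 0.025 for arrays of unlike number. With 3 arrays per group these values cannot exclude that the samples were paired. No batch could be tested, as scanner files were not analysed here, and the number of arrays limits the precision. Figures were drawn with matplotlib 3.10.9.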

Additional observations from a re-analysis of the deposited data

Results flagged for a closer look

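Among the 10 probe sets of the enzyme genes that were not used in the comparison, 2 passed as higher than vehicle, and only such rises are listed here. The second probe set of Hdac4 was dimmer, at 4.58 ± 0.10 with PLX3397 and 4.10 ± 0.14 with vehicle (SD, n = 3 each), and higher by 0.48. The second probe set of Hdac1, at 9.15 ± 0.07 with PLX3397 and 8.79 ± 0.04 with vehicle, was higher by 0.36. Both lay close to the changes of the probe sets used, 0.47 and 0.37. For Hdac1 that closeness is not a separate measurement, as signal shared with a near-identical copy could not be told apart.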

How the results depend on the processing

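Over 14 alternatives all 41 calls kept their sign, and 12 of the 21 rises and 16 of the 20 falls passed in every alternative that tested them; 9 genes not called passed in at least 1. The count of rises was 12 with arrays centred on their medians and 20 with quantile normalisation, a shift that by construction lowers every PLX3397 change under centring. Falls numbered 24 and 19 there. Leaving out 1 array gave 17 to 23 rises, 17 to 21 falls and 6332 to 7101 calls over all genes, against 7539. The replicate block gave 20 rises, 19 falls and 7154 calls over all genes. It is only a comparison, as same-numbered arrays showed no shared deviation. Dnmt3l and Kmt5b lost their calls under the block. With the filter at a mean of 5 log2, 53 of the 68 genes were tested, and 15 rose and 20 fell. Scanner intensities were not analysed here, so signal over background rests on the receptor genes, and for Tet1, Kdm4d and Hdac9 it limits what can be read.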
